A study of Mus musculus with 18 samples.

Results

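Cells of the N gate were set against cells of the mature luminal (ML) gate in the mammary glands of Esr1 wild-type (WT) mice, with 3 libraries for N and 3 for ML. They were chosen by genotype and gate in the sample titles, and these 6 libraries are part of 18 in all. Cells had been isolated by flow cytometry and their RNA sequenced. All mice, of both gates, were 6 months old, had been implanted with hormone pellets of E2 (estradiol) and P4 (progesterone), and were given giredestrant, an antagonist of estrogen receptor alpha, at 30 mg/kg by mouth once a day over 4 days. No group analysed here went without giredestrant, so every value below was measured under the antagonist. No source used here gives the surface markers that define the N gate, and the source label of every library, N included, reads mature luminal cells. The other 12 libraries came from both gates of mice with the Esr1 changes D542G or Y541S, and served to estimate the spread between libraries and for 1 comparison at the end. The title of the series asks whether cells that appear under receptor antagonism are also found, as a rare population, in WT tissue.

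The mammary epithelium has an inner luminal and an outer basal layer. Hormone-sensing mature luminal cells carry the receptors for estrogen, progesterone and prolactin, and depend on the pioneer factor Foxa1 and on Gata3. Luminal progenitors, which give rise to milk-secreting alveolar cells, carry the receptor tyrosine kinase Kit and the transcription factor Elf5. Basal cells hold keratins 5 and 14 and the transcription factor p63 (Trp63), sit on laminin through hemidesmosomes, and contract through smooth muscle actin (Acta2) when oxytocin reaches them.

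The 6 WT libraries held 34797778 to 45504595 gene counts and 18353 to 20328 genes with at least 1 count. Levels are given as CPM, the counts of a gene per 1e+06 counts of the scaled library total. Each library was counted as 1 sample, since no pair within a gate was alike to counting noise (chi-square over its degrees of freedom, 115 to 889). WT N 3 stood apart from WT N 1 and WT N 2. On the first principal component of all 18 libraries, which held 47% of the variance, WT N 1, N 2 and N 3 scored 70.0, 69.1 and −10.1, against −23.5, −35.5 and −61.9 for WT ML 1, ML 2 and ML 3. WT N 1 and N 2 correlated at r = 0.968 over genes. WT N 3 correlated at 0.766 and 0.754 with these 2 libraries and at 0.824 to 0.875 with the ML libraries. Because of this, values without WT N 3 are given beside those with it where the call differs. The ML libraries differed too, and WT ML 1 and ML 2 held hair follicle keratin and immunoglobulin transcripts that WT ML 3 all but lacked. Of 1261 protein-coding genes that lie inside another annotated gene, 1108 (87.9%) were at 0 in all 18 libraries, against 14.9% of other protein-coding genes, and list members such as Elf3, Tff1, Tff3 and Csn3 were listed at 0 in every library. Genes that overlap a neighbour in part include Erbb4, Clic6, Wnt5b, Dll1, Dlk2, Lamb3, Itga6, Itgb4, Tgfbr3, Icam1, Ltbp1, Slc12a4 and Krt8, and the effect of this on their levels was not tested. As the libraries are bulk RNA, fewer cells of a type and less RNA per cell cannot be told apart in any of these values.

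With all 3 N libraries, 646 of 18298 genes tested (3.53%) passed an adjusted p of 0.05 in edgeR's quasi-likelihood test, 392 (2.14%) higher in N and 254 (1.39%) lower. Without WT N 3 there were 2965 of 19137 (15.5%), 1408 (7.36%) higher and 1557 (8.14%) lower, and 636 of the 646 were among them in the same direction. The labels do not say that library numbers mark pairs. Deviations from the gate means correlated at 0.348, 0.177 and 0.418 between libraries of the same number, and at −0.449 to 0.178 between others. Pair 2 was thus no closer than some libraries of different numbers. The deviations of the 3 libraries of a gate sum to 0, so these correlations are not independent of each other. With the number as a block, a choice taken from these same counts, 900 genes (4.92%) passed, 508 (2.78%) higher and 392 (2.14%) lower. With the 6 WT libraries alone 16 of 15786 genes (0.101%) passed, 1 (0.00633%) higher and 15 (0.095%) lower. The higher gene was Tgfbr3, and Wnt5b, Clic6, Atp6v1b1, Muc1 and Lif were among the lower. The count fell to 157 without WT N 1, 169 without WT N 2, 279 without WT ML 1, 224 without WT ML 2 and 271 without WT ML 3. In all, 104 of the 646 genes, 59 higher and 45 lower, passed whichever of the 18 libraries was left out. Counts of list members below are those of edgeR with all 18 libraries and no block, unless another fit is named. Of all 18298 genes, 2124 were higher and 1792 lower in N at an unadjusted p under 0.05. DESeq2 called 1191 higher and 837 lower, and limma-voom 2619 and 2548. List counts are to be read beside these all-gene counts. Limma-voom weighted libraries by quality, and WT N 3 had the lowest weight of all 18, 0.18. WT N 1 and N 2 had 2.07 and 1.21. Limma-voom counts thus rest less on WT N 3 than on the other N libraries. The median log2 difference of all genes tested, N minus ML, was −0.0182, and −0.0668 without WT N 3.

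For the genes called without it, WT N 3 lay on either side of the ML libraries or among them. Of the 1408 genes higher in WT N 1 and N 2, which were chosen without WT N 3, this library lay above all 3 ML libraries for 679 (48.2%), within their range for 543 and below them for 186. Of the 1557 lower genes it lay below all 3 ML libraries for 588 (37.8%), within their range for 728 and above them for 241. Over all genes tested WT N 3 was above the 3 ML libraries for 23.4% and below them for 25.1%. The genes were chosen against the same ML libraries, so these shares over all genes are no level to read the others against, and the positions are a description. Set on a scale where 0 is the mean of the ML libraries and 1 the mean of WT N 1 and N 2, in log2(CPM + 1), its median position was 0.199 for the higher and 0.0702 for the lower genes.

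**Figure D1:**
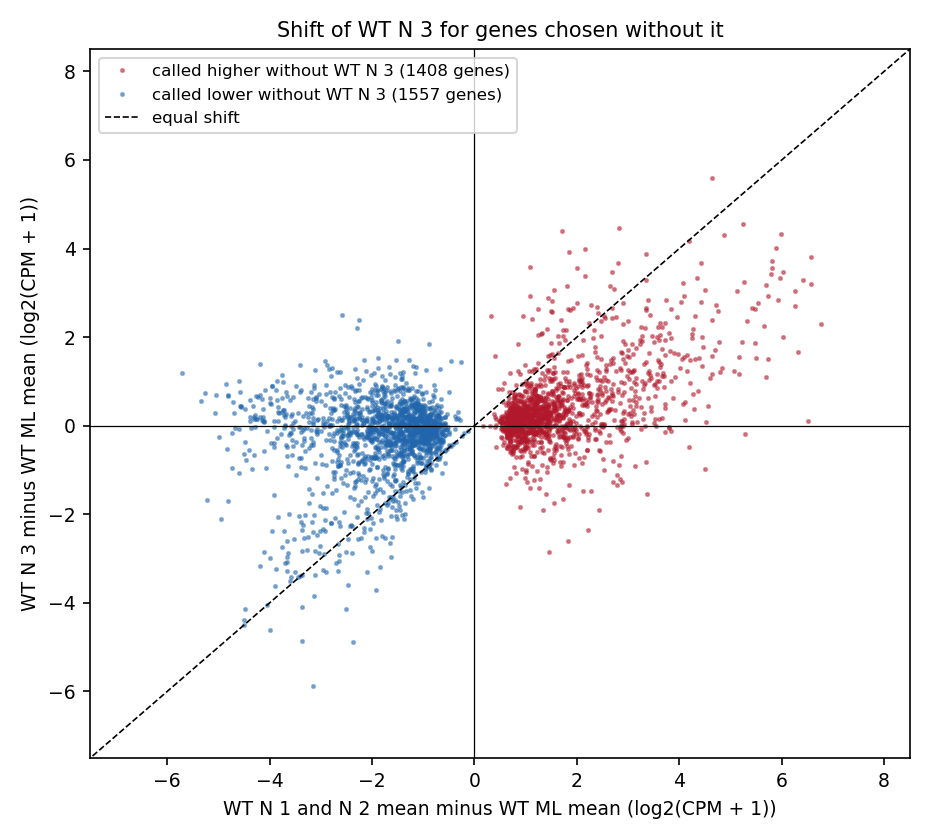
Shift of WT N 3 from the mean of the 3 WT ML libraries (vertical axis) against the shift of the mean of WT N 1 and N 2 (horizontal axis), both in log2(CPM + 1), for the genes called without WT N 3, 1408 higher (red) and 1557 lower (blue). Some points follow the dashed line of equal shift, while many lie along 0 on the vertical axis, where WT N 3 was at the ML level.

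Luminal progenitor genes were low in all 3 N libraries. Of 15 members tested, edgeR called 8 lower in N and none higher, limma-voom called 12 lower and 1 higher, and for 13 all 3 N libraries lay below all 3 ML libraries, which held for 9.65% of all genes. Of all genes edgeR called 1.39% lower in N and 2.14% higher. The median log2 difference of the list was −2.81. The summed level of the list was 1196, 1418 and 1327 CPM in WT N 1, N 2 and N 3, against 12774, 12542 and 6778 CPM in WT ML 1, ML 2 and ML 3. Kit had 27.4, 57.9 and 61.4 CPM in N, against 179, 482 and 364 CPM in ML, a log2 difference of −2.81 ± 0.66 (SE, adjusted p = 0.0309). Elf5, the driver of alveolar fate, had 6.59, 8.48 and 4.54 CPM in N, against 90.0, 100 and 77.0 CPM in ML (−3.77 ± 0.98, adjusted p = 0.0487). Both genes were separated between the gates in every library.

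The retinaldehyde dehydrogenase gene Aldh1a3 had 47.7, 52.9 and 40.6 CPM in N, against 233, 591 and 453 CPM in ML (−3.18 ± 0.64, adjusted p = 0.0172). Hey1, a repressor induced by Notch, had 6.81, 8.40 and 2.05 CPM in N, against 75.6, 122 and 71.3 CPM in ML (−3.96 ± 0.72, adjusted p = 0.0104). Cd14, the co-receptor for bacterial lipopolysaccharide, had 62.3, 69.7 and 132 CPM in N, against 1401, 1046 and 810 CPM in ML (−3.62 ± 0.72, adjusted p = 0.0166). The groups did not overlap for any of these genes, and WT N 3 was as low as the other two or close to them. The remaining calls were Lcn2, Mfge8 and the chemokine gene Cxcl1. Of the other members, Itga2 was called higher without WT N 3, with 49.8, 52.7 and 8.31 CPM in N, against 19.8, 23.6 and 7.74 CPM in ML. Several of these calls were lost when 1 WT library was left out: Kit without ML 2, ML 3, N 1 or N 2 (adjusted p up to 0.14), Aldh1a3 without ML 2, N 1 or N 2 (up to 0.0738), Hey1 without N 1 (0.0506), and Cd14 without N 1 or N 2 (up to 0.0831). Elf5 was lost without any 1 of the 6 WT libraries (adjusted p up to 0.165), while the block gave 0.0206.

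The milk list shares Lcn2 and Mfge8 with the progenitor list. Of 18 milk and alveolar genes tested, 3 were lower in N and none was higher, against 1.39% and 2.14% of all genes. Mfge8, which encodes the milk fat globule protein lactadherin, had 639, 687 and 500 CPM in N, against 6206, 6403 and 3051 CPM in ML (−3.10 ± 0.39, adjusted p = 0.00135), and stayed called with any library left out. Lcn2, the iron-siderophore binding lipocalin, had 133, 120 and 129 CPM in N, against 2955, 1455 and 632 CPM in ML (−3.72 ± 0.67, adjusted p = 0.00984). Lactoferrin (Ltf) had 433, 1020 and 745 CPM in N, against 3939, 6792 and 6065 CPM in ML (−2.93 ± 0.61, adjusted p = 0.0192). The 3 genes were below every ML library in every N library. Lcn2 lost its call without N 1 or N 2 (adjusted p up to 0.0527) and Ltf without N 1, N 2, ML 2 or ML 3 (up to 0.0996). The casein gene Csn2 had 29.1, 0.0259 and 0 CPM in N, against 1.54, 0 and 0 CPM in ML, so it was near 0 in most libraries of both gates.

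Hormone-sensing and pan-luminal genes split the N libraries. Of 19 hormone-sensing genes tested 1 was lower in N, and of 17 pan-luminal genes 1, Muc1. The share of all genes lower in N was 1.39%. The hormone-sensing call was Cd14, which is also on the progenitor list and is counted there too. The counts without WT N 3 were 13 and 11 lower, with 0 and 1 higher. Without WT N 3, 8.14% of all genes were lower and 7.36% higher. The summed hormone-sensing level was 1730 and 1705 CPM in WT N 1 and N 2 and 13901 CPM in WT N 3, against 7772, 9816 and 18279 CPM in ML. The pan-luminal sum was 3121, 4167 and 20754 CPM in N, against 18392, 21411 and 27526 CPM in ML. In both sums WT N 3 was inside the range of the ML libraries, and WT N 1 and N 2 were below it.

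Esr1 itself had 10.7 and 14.9 CPM in WT N 1 and N 2 and 307 CPM in WT N 3, against 118, 187 and 455 CPM in ML. The log2 difference was −1.19 ± 0.96 (adjusted p = 0.501), and −4.30 without WT N 3 (adjusted p = 0.00214). Foxa1 had 7.87, 14.7 and 573 CPM in N, against 107, 348 and 619 CPM in ML (−0.85, adjusted p = 0.702; −4.99 and 0.00233 without WT N 3). The prolactin receptor gene Prlr had 91.6, 72.2 and 1215 CPM in N, against 805, 1264 and 1878 CPM in ML (−1.52, adjusted p = 0.31; −4.01 and 0.00105 without WT N 3). The progesterone receptor gene Pgr had 0.201, 1.94 and 24.3 CPM in N, against 9.23, 13 and 32.1 CPM in ML (−1.04, adjusted p = 0.603; −4.08 and 0.0112 without WT N 3). For all 4 genes the level in WT N 3 was between those of ML libraries, and those in WT N 1 and N 2 were below every ML library.

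Among surface markers used in mammary sorts, Prom1, of hormone-sensing cells, had 8.78, 4.89 and 157 CPM in N, against 61.7, 224 and 208 CPM in ML (−1.53, adjusted p = 0.428; −4.59 and 0.00755 without WT N 3). Cd24a had 236, 185 and 520 CPM in N, against 369, 537 and 692 CPM in ML (−0.76, adjusted p = 0.27; −1.34 and 0.0236 without WT N 3). Ly6a, which encodes Sca1, overlapped between the gates, with 203, 247 and 901 CPM in N, against 181, 295 and 795 CPM in ML (0.09, adjusted p = 0.966).

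The luminal keratins split the N libraries as well. Krt18 had 194, 264 and 4581 CPM in N, against 3829, 4511 and 6062 CPM in ML, and Krt8, its filament partner, had 30.2, 52.1 and 740 CPM in N, against 503, 715 and 955 CPM in ML. Leaving out WT N 3, their log2 differences were −4.39 (adjusted p = 0.000321) and −4.14 (adjusted p = 0.000188), and with it they were −1.52 and −1.40 (adjusted p = 0.326 and 0.337). Epcam, the epithelial adhesion gene often used to sort mammary cells, had 491, 579 and 1869 CPM in N, against 1996, 2911 and 3079 CPM in ML. Its groups did not overlap, and the difference of −1.44 ± 0.40 missed the threshold (adjusted p = 0.0598) but passed with the block (−1.70, adjusted p = 0.0204) and without WT N 3 (−2.31, adjusted p = 0.000188). E-cadherin (Cdh1), the junction protein of epithelia, was high in both gates, with 1187, 1726 and 864 CPM in N, against 657, 1151 and 1440 CPM in ML (adjusted p = 0.75). Muc1, an apical mucin, had 10.4, 14.8 and 14.3 CPM in N, against 156, 198 and 112 CPM in ML (−3.55 ± 0.64, adjusted p = 0.00947; 0.0535 without WT N 1). Unlike the keratins, it was as low in WT N 3 as in the other N libraries.

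**Figure D2:**
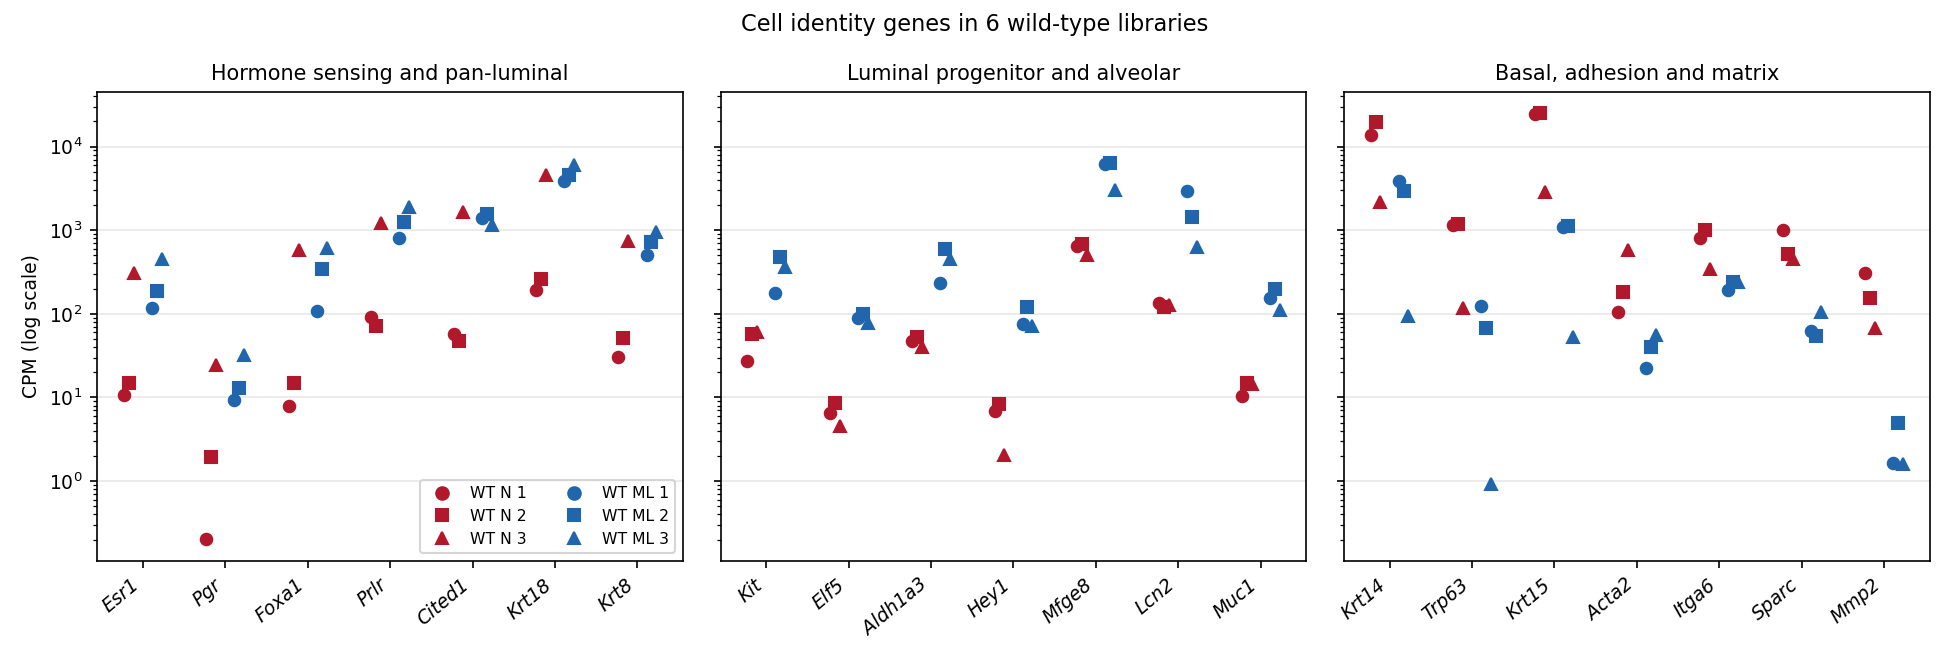
Levels (CPM, log axis) of 21 identity genes in the WT N (red, left of each gene) and WT ML libraries (blue, right), with a marker shape for each library number. The triangle of WT N 3 lies with the ML libraries for Esr1 (307 CPM) and Krt18 (4581 CPM), and with the other N libraries for Kit, Elf5, Hey1 and Muc1.

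Among 16 hormone receptors and their cofactors none passed with edgeR and all 3 N libraries (5 at an unadjusted p under 0.05, 2 with DESeq2, 12 with limma-voom), and without WT N 3 there were 9 lower and 3 higher in N. Of all 18298 genes DESeq2 called 2028 and limma-voom 5167 in either direction. Of all genes tested without WT N 3, edgeR called 8.14% lower and 7.36% higher. Gata3 passed with the block, at −1.21 (adjusted p = 0.0267), and without WT N 3, at −1.81 (adjusted p = 0.00102). It had 101, 108 and 340 CPM in N, against 299, 318 and 485 CPM in ML. The 3 higher without WT N 3 were the vitamin D receptor gene Vdr, the glucocorticoid receptor gene Nr3c1 and the transcription factor gene Tfap2c. Vdr had 593, 346 and 70.1 CPM in N, against 115, 114 and 49.5 CPM in ML (1.86, adjusted p = 0.0743; 2.34 and 0.00145 without WT N 3).

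Of 21 estrogen-responsive genes tested, 3 were higher and 3 lower in N, against 2.14% and 1.39% of all genes. Greb1 and Areg, which estrogen receptor alpha is known to induce, did not pass. Greb1 had 2.64, 1.99 and 6.86 CPM in N, against 3.22, 2.13 and 1.44 CPM in ML, and Areg had 36.8, 66.3 and 111 CPM in N, against 78.4, 43.9 and 62.1 CPM in ML. The genes that passed as lower were Igfbp5, Rasd1 and the cyclin gene Ccnd1. Igfbp5, which binds insulin-like growth factors, had 34.1, 49.9 and 126 CPM in N, against 582, 560 and 866 CPM in ML (−3.26 ± 0.52, adjusted p = 0.0064). Rasd1, a small GTPase, had 56.4, 37.2 and 54.4 CPM in N, against 136, 90.5 and 97.9 CPM in ML (−1.13 ± 0.24, adjusted p = 0.0198), and lost its call without WT N 1, N 2 or ML 1 (adjusted p up to 0.0943). Myc was higher, with 1306, 1381 and 438 CPM in N, against 315, 262 and 268 CPM in ML (1.89 ± 0.33, adjusted p = 0.00941), as were Igfbp4 and the chemokine gene Cxcl12, whose calls were lost without WT N 1, N 2, ML 2 or ML 3, among others (adjusted p up to 0.0787 and 0.18). The groups of Igfbp5, Rasd1 and Myc did not overlap, and for Igfbp5 and Myc WT N 3 was nearest to ML. Of 15 progesterone-responsive genes, Cxcl12 was higher, and Lif and Elf5 were lower, against 2.14% and 1.39% of all genes. The cytokine gene Lif had 11.4, 15.3 and 21.2 CPM in N, against 105, 127 and 113 CPM in ML (−2.85 ± 0.46, adjusted p = 0.00645). The groups were far apart for Lif, and its call held whichever library was left out.

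Some basal genes were higher in N, and basal levels differed widely between libraries of both gates. The summed level of the basal and myoepithelial list was 33624, 42003 and 7175 CPM in N, against 10007, 7000 and 789 CPM in ML. WT N 3 was thus at the level of WT ML 1 and ML 2. Of 19 members tested, 4 were higher in N and none lower, 7 were higher without WT N 3, and 9 with the block. The shares of all genes higher in these fits were 2.14%, 7.36% and 2.78%. The list's median log2 difference was 2.36, and all 3 N libraries were above all 3 ML libraries for 11 members, against 9.29% of all genes.

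Keratin 14 (Krt14) had 13797, 19458 and 2170 CPM in N, against 3862, 2925 and 94.5 CPM in ML (2.36 ± 1.10, adjusted p = 0.229). Krt5 had 10670, 14857 and 1668 CPM in N, against 2281, 1631 and 39.4 CPM in ML (2.78 ± 1.39, adjusted p = 0.263). Trp63 had 1164, 1171 and 116 CPM in N, against 123, 68.0 and 0.923 CPM in ML (3.68 ± 1.40, adjusted p = 0.154). For each of these genes the groups overlapped, because WT N 3 was below WT ML 1. Within each library number N was higher than ML for Krt5, and with the block Krt14 (3.01, adjusted p = 0.0415) and Trp63 (4.62, adjusted p = 0.0421) passed, while Krt5 (3.56, adjusted p = 0.0753) did not.

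Contractile genes had another order. Acta2 had 104, 181 and 581 CPM in N, against 22.8, 40.5 and 56.3 CPM in ML (2.86 ± 0.68, adjusted p = 0.0329). Calponin (Cnn1), which binds actin in smooth muscle, had 11.9, 32.2 and 156 CPM in N, against 3.00, 7 and 11.4 CPM in ML (3.22, adjusted p = 0.0593). The oxytocin receptor gene Oxtr had 45.3, 71.5 and 166 CPM in N, against 2.11, 25.3 and 37.2 CPM in ML (2.13, adjusted p = 0.112; 0.0286 with the block). WT N 3, which had the fewest basal keratin transcripts among the N libraries, had the most of all 3 contractile genes. Sparc, a collagen-binding matrix protein, was high in each N library, with 1019, 520 and 451 CPM, against 62.7, 53.6 and 105 CPM in ML (3.17 ± 0.53, adjusted p = 0.00735). The Acta2 call was lost without WT N 2 or any WT ML library, and without D542G N 3 (adjusted p up to 0.114).

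In the hemidesmosome, laminin and integrin list edgeR called 6 of 21 members higher in N and none lower (median log2 difference 1.28), and limma-voom 12 higher and 1 lower. Leaving out WT N 3 gave 10 higher and 1 lower. Of all genes edgeR called 2.14% higher, and 7.36% without WT N 3. Lamb3, the beta chain of laminin 332, had 748, 972 and 188 CPM in N, against 30.7, 60.8 and 44.5 CPM in ML (3.81 ± 0.58, adjusted p = 0.00459). Col17a1, the transmembrane collagen of the hemidesmosome, had 2008, 2575 and 219 CPM in N, against 65.4, 33.2 and 5.10 CPM in ML (5.53 ± 1.37, adjusted p = 0.0404). Itga3, an integrin chain that binds laminin 332, had 302, 298 and 163 CPM in N, against 102, 64.7 and 103 CPM in ML (1.5 ± 0.25, adjusted p = 0.00703). The N libraries were above the ML libraries for all 3 genes, with WT N 3 the lowest of them. Both chains of the hemidesmosomal integrin passed: Itga6 had 812, 1011 and 345 CPM in N, against 192, 239 and 237 CPM in ML (1.70 ± 0.35, adjusted p = 0.0179), and Itgb4 differed by 1.85 ± 0.38 (adjusted p = 0.0184). Each of these 2 calls was lost without any 1 WT library other than WT N 3 (adjusted p up to 0.0808). Col17a1 lost its call in the same way and without some mutant libraries too (0.126 at most). Itgb1, a partner of several integrin chains, had 729, 623 and 482 CPM in N, against 285, 511 and 594 CPM in ML (0.40, adjusted p = 0.37).

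Keratinocyte and epidermal genes had their highest summed levels in WT N 1 and N 2, as the basal list did. None of 19 keratinocyte and none of 9 epidermal genes tested passed with edgeR and all libraries. At an unadjusted p under 0.05 there were 7 and 1, with DESeq2 5 and 1, and with limma-voom 10 and 2, all higher in N. Among all 18298 genes the counts higher in N were 2124 unadjusted, 1191 with DESeq2 and 2619 with limma-voom. With the block 9 and 6 were higher, and without WT N 3 there were 6 and 0. Of all genes 2.78% were higher with the block and 7.36% without WT N 3. Krt15, a keratin of basal keratinocytes and hair follicle stem cells, was among the most abundant transcripts, with 24571, 24975 and 2901 CPM in N, against 1078, 1134 and 53.2 CPM in ML (4.53 ± 1.23, adjusted p = 0.0557; 4.91 and 0.00137 with the block; 5.04 and 0.0125 without WT N 3). Krt10, a keratin of the suprabasal epidermis, had 1641, 4862 and 256 CPM in N, against 140, 61.9 and 7.59 CPM in ML (5.01 ± 2.54, adjusted p = 0.272; 4.98 and 0.00921 with the block). The N libraries were above all ML libraries for both. The epidermal list summed to 8394, 15861 and 1599 CPM in N, against 1701, 735 and 71.8 CPM in ML, and the keratinocyte list to 42465, 54525 and 5405 CPM in N, against 5849, 5007 and 1016 CPM in ML. The part of these cells in the basal and adhesion results was not tested.

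**Figure D3:**
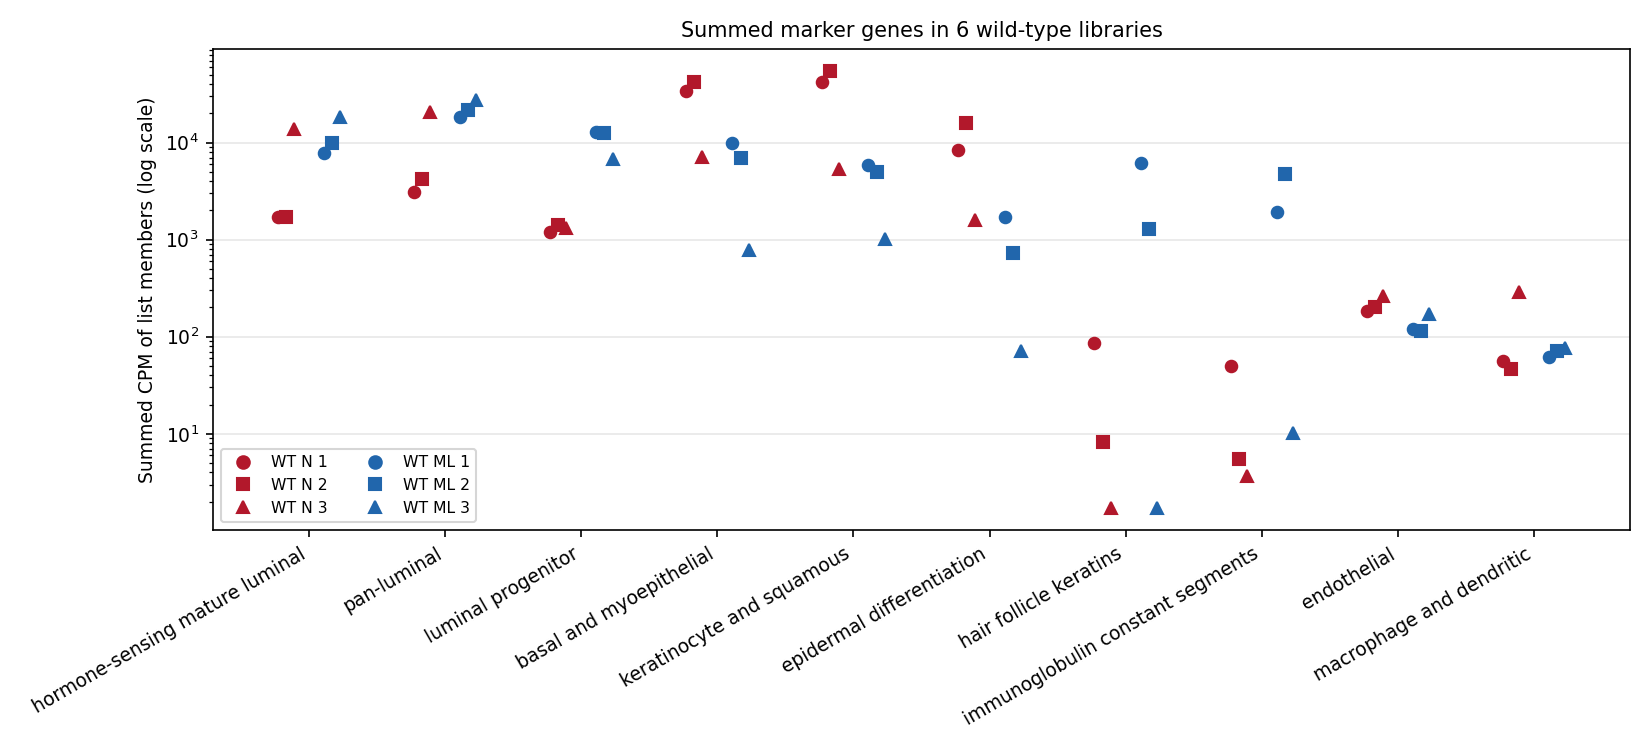
Summed level of the members of 10 marker lists (CPM, log axis) in the WT N (red, left) and WT ML libraries (blue, right). The luminal progenitor sum separates the gates (1196 to 1418 CPM in N, 6778 to 12774 CPM in ML), WT N 3 lies among the ML libraries for the hormone-sensing and pan-luminal sums, and WT ML 3 is lowest for the basal, keratinocyte and epidermal sums.

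Of 18 genes linked with mesenchymal transition, 5 were higher in N and none lower: Mmp2, Axl, Tgfbi, Snai2 and Vim. The share of all genes higher in N was 2.14%. Mmp2, a gelatinase that degrades basement membrane collagen, had 305, 156 and 68.5 CPM in N, against 1.63, 4.95 and 1.61 CPM in ML (6.01 ± 0.69, adjusted p = 0.000707). The receptor tyrosine kinase gene Axl had 413, 327 and 83.7 CPM in N, against 30.2, 38.4 and 16.6 CPM in ML (3.27 ± 0.57, adjusted p = 0.00941). Snai2, a transcription factor also of basal mammary cells, had 142, 180 and 36.6 CPM in N, against 8.70, 4.51 and 0.795 CPM in ML (4.68 ± 1.03, adjusted p = 0.0241). Vimentin (Vim) had 58.8, 86.0 and 185 CPM in N, against 21, 28.5 and 38.9 CPM in ML (1.90 ± 0.49, adjusted p = 0.0459), with WT N 3 the highest. None of the 4 groups overlapped. Zeb1, Twist1 and Snai1, factors of the classical transition, did not pass. Zeb1 had 4.45, 3.72 and 7.65 CPM in N, against 4.18, 6.39 and 1.69 CPM in ML. The calls of Mmp2 and Axl held with every library left out, Snai2 lost its call without WT N 1, N 2, ML 2 or ML 3 (adjusted p up to 0.0905), and Vim without any WT library (up to 0.142).

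Wnt signalling depends on secreted ligands, Frizzled and Lgr receptors, and secreted antagonists. Of 25 genes of the pathway 3 were higher in N (Dkk3, Sfrp1, Lgr5) and 1 was lower (Wnt5b), against 2.14% and 1.39% of all genes. Wnt5b, a ligand that mostly acts outside the beta-catenin route, had 37.7, 39.6 and 24.7 CPM in N, against 236, 310 and 213 CPM in ML. Its difference of −2.90 ± 0.28 had an adjusted p of 0.000429 and held in every alternative fit. Dkk3, Sfrp1 and Lgr5 ran the other way. Dkk3, of the Dickkopf family, had 410, 223 and 185 CPM in N, against 8.65, 12.2 and 2.97 CPM in ML (5.10 ± 0.59, adjusted p = 0.000707). Sfrp1, which binds Wnt ligands, had 760, 316 and 330 CPM in N, against 31.9, 24.9 and 4.46 CPM in ML (4.52 ± 0.85, adjusted p = 0.0125). Lgr5, an R-spondin receptor, had 256, 122 and 87.4 CPM in N, against 21.5, 12.5 and 1.23 CPM in ML (3.72 ± 0.94, adjusted p = 0.0425). All 3 N libraries were on the same side of the ML libraries for each of the 4 genes. The call of Lgr5 was lost without any 1 WT library other than WT N 3 and without several mutant ones (adjusted p up to 0.144). The target gene Axin2 had 1.79, 3.44 and 1.36 CPM in N, against 1.56, 0.249 and 0.590 CPM in ML (adjusted p = 0.574).

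Of 20 Notch pathway genes 3 were higher in N (Dll1, Dlk2, Lfng) and 1 was lower (Hey1, above), against 2.14% and 1.39% of all genes. The Notch ligand gene Dll1 had 53.2, 79.8 and 38.5 CPM in N, against 3.99, 2.66 and 0.615 CPM in ML (4.56 ± 0.75, adjusted p = 0.00703). Dlk2, a relative of the Delta ligands that lacks their receptor-activating domain, had 70.1, 90.8 and 3.92 CPM in N, against 0.0961, 0.720 and 0 CPM in ML (7.67 ± 1.53, adjusted p = 0.0166), and lost the call without WT N 2, ML 1 or ML 3 (adjusted p up to 0.0652). A further ligand gene, Jag2, had 354, 387 and 101 CPM in N, against 27.0, 7.89 and 0 CPM in ML (4.59, adjusted p = 0.0713; 0.0377 with the block and 0.0257 without WT N 3). Of the 5 ligand genes tested Dll1 passed, and Jag1, Dll3 and Dll4 did not (adjusted p = 0.088, 0.938 and 0.633), though Jag1 did without WT N 3 (1.49, adjusted p = 0.00953). The target Hes1 had 77.3, 45.8 and 279 CPM in N, against 295, 232 and 306 CPM in ML (−1.05, adjusted p = 0.25), and was lower without WT N 3 (−2.17, adjusted p = 0.00276).

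Promoter sequence was compared between the genes called in either direction and all genes tested. RefSeq windows from 250 bases before to 50 after a transcription start (GRCm38.p6) were found for 12594 of the symbols tested. The AP-1 motif TGANTCA, which reads the same on both strands, stood in 7.08% of them, in 6.80% of the 294 genes higher in N and in 6.99% of the 186 genes lower in N. Windows with an AP-1 match were listed for Dll1, Itga3, Lif and Wnt5b, which need not be all named genes with a match. The window of the Wnt5b start at chr6:119544298-119544597 (minus strand) and that of a Dll1 start at chr17:15376883-15377182 (minus strand) are shown, 1 for each direction, 5′ to 3′ with the match in capitals. Further windows of both genes held no match.
Wnt5b: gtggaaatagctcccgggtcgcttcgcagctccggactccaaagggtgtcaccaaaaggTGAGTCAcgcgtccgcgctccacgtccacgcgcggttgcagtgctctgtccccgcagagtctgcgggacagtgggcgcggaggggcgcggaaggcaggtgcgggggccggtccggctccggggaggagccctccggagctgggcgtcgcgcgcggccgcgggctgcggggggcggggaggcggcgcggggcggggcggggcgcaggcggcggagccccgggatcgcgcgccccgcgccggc
Dll1: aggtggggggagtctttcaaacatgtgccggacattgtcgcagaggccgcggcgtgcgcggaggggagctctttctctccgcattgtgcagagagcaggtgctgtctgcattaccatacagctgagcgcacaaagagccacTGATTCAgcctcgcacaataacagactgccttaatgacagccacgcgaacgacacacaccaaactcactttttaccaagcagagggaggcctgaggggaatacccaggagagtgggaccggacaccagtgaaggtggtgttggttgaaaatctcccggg
A match describes these letters and is no evidence of binding, and its share in genes called in either direction was close to that of all genes. The TATA box motif TATAAA, searched on both strands, stood in 16.0% of the 294 genes higher in N, in 11.3% of the 186 lower and in 9.73% of all, a difference that was not tested.

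In the ErbB family, which carries epidermal growth factor and neuregulin signals, 1 of 15 genes was higher in N (Epgn) and 1 lower (Erbb4). As 2.14% of all genes were higher and 1.39% lower, 1 call each way is not read as a trait of the family. The receptor gene Erbb4, known for its part in alveolar development, had 1.36, 1.68 and 0.641 CPM in N, against 58.4, 44.9 and 22.4 CPM in ML (−5.09 ± 0.76, adjusted p = 0.00423). Each N library was far below each ML library, and the call held with every library left out. The other receptor genes did not pass: Erbb2 had 162, 229 and 236 CPM in N, against 143, 188 and 277 CPM in ML, and Egfr had 256, 238 and 36.9 CPM in N, against 154, 94.4 and 45.6 CPM in ML. The ligand gene Epgn (epigen) had 233, 327 and 9.94 CPM in N, against 4.97, 3.46 and 0.564 CPM in ML (5.98 ± 1.51, adjusted p = 0.043), a call lost without any WT library other than WT N 3 (adjusted p up to 0.126).

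Of 21 TGF-beta and BMP genes, 3 were higher in N (Tgfbr3, Fst, Bmp2) and 3 lower (Ltbp1, Tgfb2, Tgfb3), against 2.14% and 1.39% of all genes. Tgfbr3, the co-receptor betaglycan, had 102, 123 and 105 CPM in N, against 16.5, 23.4 and 19.1 CPM in ML (2.48 ± 0.33, adjusted p = 0.00222). Ltbp1, which holds latent TGF-beta in the matrix, had 17.2, 40.2 and 19.8 CPM in N, against 146, 232 and 149 CPM in ML (−2.77 ± 0.44, adjusted p = 0.00568). Replicates of both gates were close together for these genes, and both calls held with every library left out. The ligand gene Tgfb3 had 37.0, 43.6 and 76.5 CPM in N, against 87.2, 234 and 277 CPM in ML (−1.93 ± 0.44, adjusted p = 0.0291), and lost its call without WT N 1, N 2, ML 2 or ML 3 (adjusted p up to 0.139). Tgfb1 had 28.8, 24.9 and 26.0 CPM in N, against 26.8, 21.1 and 21.4 CPM in ML (0.20, adjusted p = 0.494).

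**Figure D4:**
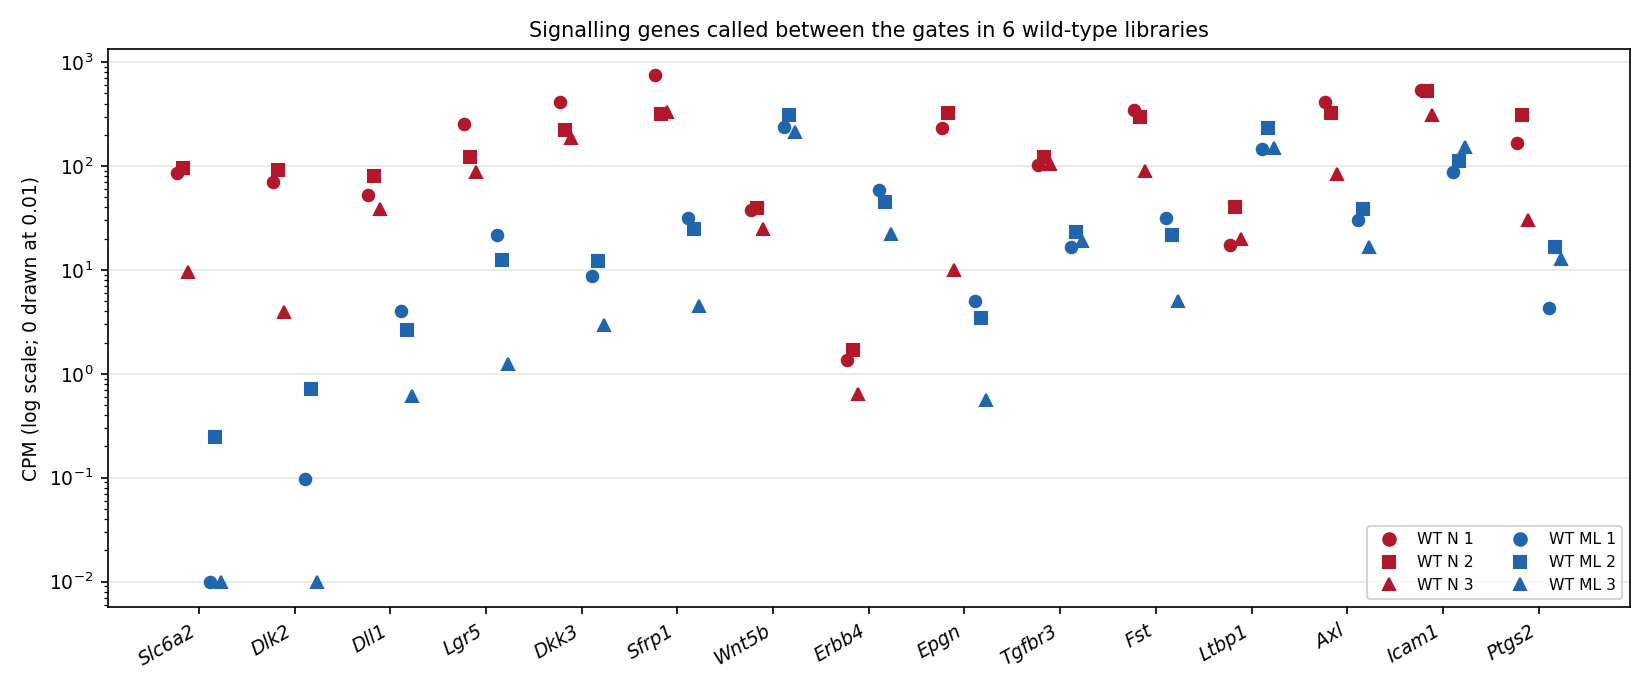
Levels (CPM, log axis, 0 drawn at 0.01) of 15 signalling genes in the WT N (red, left) and WT ML libraries (blue, right). Wnt5b, Erbb4 and Ltbp1 are lower in all 3 N libraries, the others higher, and WT N 3 lies between the other N libraries and ML for Slc6a2, Dlk2 and Epgn.

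Inflammatory genes went both ways. Of 18 tested, Icam1 and Ptgs2 were higher in N, and Cxcl1, Cxcl2 and Tnfaip2 were lower, against 2.14% and 1.39% of all genes. Icam1, an adhesion molecule for leukocytes, had 528 CPM or more in WT N 1 and N 2 and 307 CPM in WT N 3, against 87.3, 113 and 154 CPM in ML (1.96 ± 0.31, adjusted p = 0.00616). Cxcl1 had 60.3, 68.2 and 57.1 CPM in N, against 260, 355 and 260 CPM in ML (−2.24 ± 0.54, adjusted p = 0.0345), and lost its call without any WT library other than WT N 3 and without D542G N 3 (adjusted p up to 0.128). Il33, an alarmin, had 129, 212 and 325 CPM in N, against 0.288, 5.12 and 37.5 CPM in ML (3.96, adjusted p = 0.0564; 5.49 and 0.0244 with the block; 3.58 and 0.0449 without WT N 3). None of these 3 genes overlapped between the gates. Of 22 interferon-responsive genes none passed with edgeR and all libraries (8 lower at an unadjusted p under 0.05, 3 with the block, 1 with DESeq2, 14 with limma-voom), and without WT N 3 there were 9 lower and none higher. Of all 18298 genes 1792 were lower unadjusted, 837 with DESeq2 and 2548 with limma-voom. With edgeR the share of all genes lower in N was 8.14% without WT N 3 and 2.14% with the block. Oasl2, an example, had 5.93, 7.91 and 38.7 CPM in N, against 35.1, 46.1 and 63.7 CPM in ML, with WT N 3 inside the ML range (−1.46, adjusted p = 0.177; 0.0377 with the block and 0.00206 without WT N 3).

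Immediate early genes, which cell dissociation can also raise, were high in both gates. Of 20, Myc and Egr2 were higher in N, none was lower, and 7 were higher without WT N 3. The share of all genes higher in N was 2.14%, and 7.36% without WT N 3. Fos had 10708, 8343 and 7039 CPM in N, against 8330, 8716 and 6412 CPM in ML (0.15, adjusted p = 0.873), and Egr2 had 622, 798 and 207 CPM in N, against 101, 138 and 86.6 CPM in ML (2.32 ± 0.41, adjusted p = 0.00933). Fos overlapped between the gates and Egr2 did not. The AP-1 gene Fosl1 had 1486, 1999 and 214 CPM in N, against 260, 178 and 179 CPM in ML (2.58, adjusted p = 0.103; 3.08 and 0.0153 without WT N 3). Among 13 metallothionein and glucocorticoid genes Mt1 was higher, with 2931, 2938 and 1011 CPM in N, against 877, 269 and 231 CPM in ML (2.32 ± 0.57, adjusted p = 0.0384). Of 19 genes of p53 and the CDK inhibitors Trp73 was higher, at 23.3, 16.8 and 6.31 CPM in N, against 0.841, 0.277 and 0 CPM in ML (5.35 ± 1.38, adjusted p = 0.0454). Mt1 and Trp73 lost their calls when WT N 1, N 2, ML 2 or ML 3 was left out, among others (adjusted p up to 0.13 and 0.144). Each was the only call of its list, where 2.14% of all genes were higher. Such single calls are not read as a trait of the lists.

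**Figure D5:**
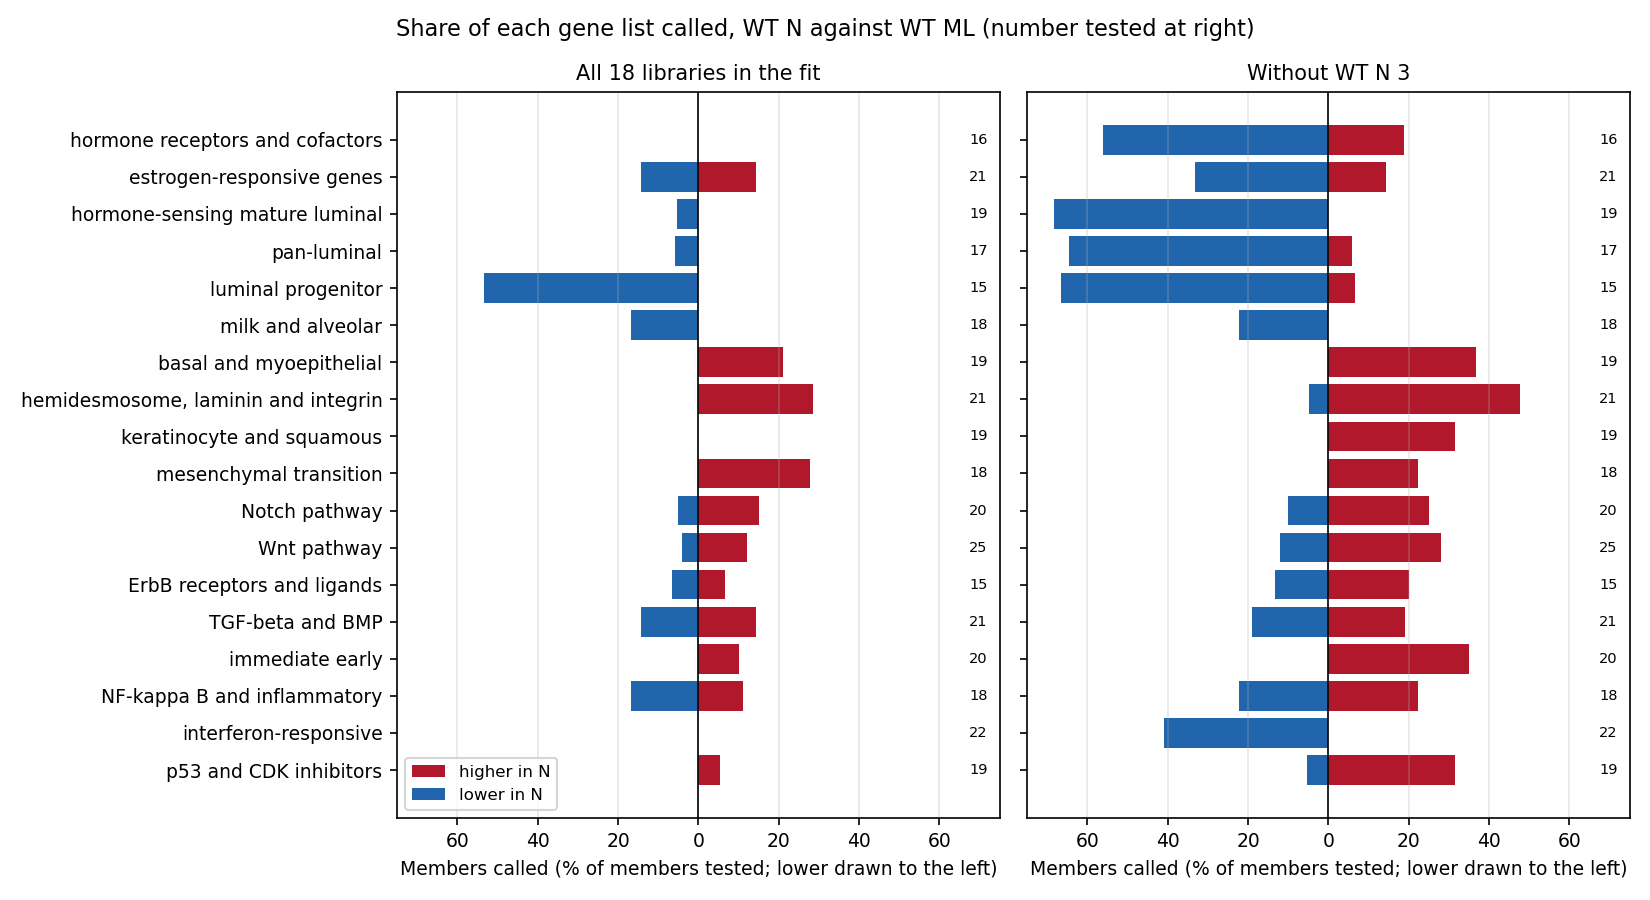
Share of the tested members of 18 gene lists called higher (red, to the right) or lower in N (blue, to the left), with all 18 libraries in the fit (left panel) and without WT N 3 (right panel). Luminal progenitor genes are called lower in both panels (8 and 10 of 15), while 13 of 19 hormone-sensing genes are called lower without WT N 3 and 1 of 19 with it. Of all genes tested, 1.39% are called lower with all libraries and 8.14% without WT N 3.

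Few genes of the housekeeping lists were called, as were few of all genes (3.53%). None of 24 cell cycle, 21 oxidative phosphorylation or 10 class I presentation genes passed with edgeR. At a share of 3.53%, lists of this size can give 0 calls without differing from other genes. At an unadjusted p under 0.05 there were 0, 1 and 1, with DESeq2 0, 0 and 1, and with limma-voom 10, 2 and 3. Of all 18298 genes DESeq2 called 2028 and limma-voom 5167. Without WT N 3 there was 1 lower in each of the first 2 lists and 1 higher in the class I list. Of 24 genes of sterol and fatty acid synthesis the desaturase gene Fads2 was lower in N, with 34.8, 27.8 and 12.8 CPM, against 106, 218 and 109 CPM in ML (−2.52 ± 0.49, adjusted p = 0.0158; up to 0.0604 without WT ML 2 or N 2). Of 18 glycolysis and hypoxia genes P4ha1, a subunit of the collagen prolyl hydroxylase, was higher, with 88.3, 96.6 and 28.1 CPM in N, against 15.4, 15.9 and 13.7 CPM in ML (2.24 ± 0.37, adjusted p = 0.00703). Both genes were separated in every library.

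The genes with the largest differences included further transporters and enzymes. Slc6a2, the noradrenaline transporter, had 85.2, 96.6 and 9.55 CPM in N, against 0, 0.249 and 0 CPM in ML. Its fitted log2 difference of 9.60 ± 1.93 (adjusted p = 0.0172) depends on the small value added to counts of 0, and the call was lost without WT ML 1 or ML 3 (adjusted p up to 0.0659). The potassium-chloride cotransporter gene Slc12a4 had 146, 156 and 28.7 CPM in N, against 1.35, 3.63 and 0.948 CPM in ML (5.81 ± 0.75, adjusted p = 0.00167). Aldh3a1, an aldehyde dehydrogenase, had 424, 420 and 87.9 CPM in N, against 7.98, 7.03 and 4.97 CPM in ML (5.54 ± 0.84, adjusted p = 0.00469). Igfbp3 had 481, 967 and 110 CPM in N, against 12.8, 20.8 and 3.41 CPM in ML (5.39 ± 0.92, adjusted p = 0.00893). WT N 3 was the lowest N library for each of them and above every ML library, and apart from Slc6a2 the calls held with every library left out. Gpha2, Adgrv1 and Cdh4 were also among the 12 highest, with log2 differences of 7.97, 6.68 and 6.34, and each lost its call without WT N 1, N 2, ML 2 or ML 3, among others (adjusted p up to 0.112, 0.0725 and 0.11).

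At the low end, Atp6v1b1, a subunit of the vacuolar proton pump, had 26.8, 25.5 and 31.7 CPM in N, against 421, 439 and 350 CPM in ML (−3.85 ± 0.66, adjusted p = 0.00924). Clic6, of the chloride intracellular channel family, had 5.86, 12.7 and 9.57 CPM in N, against 149, 228 and 307 CPM in ML (−4.60 ± 0.77, adjusted p = 0.00735). Ntng1, a membrane-anchored netrin, had 4.78, 5.20 and 8.14 CPM in N, against 119, 96.8 and 39.6 CPM in ML (−3.82 ± 0.54, adjusted p = 0.00306). Ppp1r9a, the actin-binding neurabin, differed by −4.26 ± 0.69 (adjusted p = 0.00644). All 3 N libraries were close together and below ML for these genes, and the 4 calls held with every library left out. The potassium channel gene Kcnn4 (−3.96, adjusted p = 0.00941), Snorc (−3.82, adjusted p = 0.00941) and Krt87 (−3.97, adjusted p = 0.0151) lost theirs without WT N 1 or N 2 (N 2 alone for Snorc; adjusted p up to 0.0521, 0.0504 and 0.0741). Spns3, Chst9 and the choline transporter gene Slc5a7 completed the 12 lowest, and lost their calls without WT N 1, N 2, ML 1 or ML 2, among others (adjusted p up to 0.105, 0.137 and 0.16). With the block Chst9 (adjusted p = 0.0592) and Slc5a7 (0.0687) did not pass.

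Without WT N 3 the lowest differences were in genes that this library held at the ML level. Nrxn3, a presynaptic adhesion gene, had 0.880, 2.12 and 290 CPM in N, against 72.2, 113 and 242 CPM in ML, and the fatty acid receptor gene Ffar4 had 0.855, 0 and 64.5 CPM in N, against 8.89, 23.2 and 63.5 CPM in ML. When it was left out they differed by −6.57 (adjusted p = 0.000684) and −6.21 (adjusted p = 0.00849), and with it by −0.55 each (adjusted p = 0.848 and 0.859). In both genes WT N 3 was above every ML library. The highest included Sema3d, a secreted semaphorin, with 85.7, 142 and 0.321 CPM in N, against 0.360, 0.194 and 0.128 CPM in ML (8.94, adjusted p = 0.0252; 8.36 and 0.0949 with WT N 3, 0.0376 with it and the block). Here WT N 3 was inside the ML range.

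Markers of other cells that a mammary sort can hold were at low levels in N, with exceptions. The endothelial list summed to 183, 202 and 263 CPM in N, against 119, 114 and 172 CPM in ML. None of its 12 members passed with edgeR and all libraries (7 at an unadjusted p under 0.05, 3 with the block, 4 with DESeq2, 7 with limma-voom), and it had 7 members with all N libraries above all ML libraries. The latter held for 9.29% of all genes. Pecam1 had 40.8, 45.5 and 38.9 CPM in N, against 5.09, 13 and 21.5 CPM in ML (1.66, adjusted p = 0.107). Macrophage genes were highest in WT N 3, with a summed level of 56.1, 46.4 and 286 CPM in N, against 61.9, 72 and 76.7 CPM in ML, and none of 12 passed with edgeR (1 at an unadjusted p under 0.05, and 1 each with DESeq2 and limma-voom). Adipocyte genes summed to 472, 329 and 510 CPM in N, against 131, 96.3 and 258 CPM in ML, and none of 7 passed with edgeR (4 at an unadjusted p under 0.05, 2 each with the block, DESeq2 and limma-voom). Hair follicle keratins summed to 86.6, 8.25 and 1.73 CPM in N, against 6222, 1285 and 1.72 CPM in ML, and immunoglobulin constant segments to 49.6, 5.56 and 3.63 CPM in N, against 1913, 4724 and 10.2 CPM in ML. Both sums were high in WT ML 1 and ML 2 and low in WT ML 3, and no member of either list passed with edgeR and all libraries (11 and 8 tested). At an unadjusted p under 0.05 there were 4 and 6 lower, with the block 1 (Krt31) and 3, with DESeq2 1 and 3, and with limma-voom 0 and 0. Of all genes 2.14% were higher and 1.39% lower in N with edgeR. Of the calls that follow, each was lost without 1 of several WT libraries. Of 8 pericyte genes Mcam was higher in N, of 12 fibroblast genes Dpt was higher and Fap lower (adjusted p = 0.0699 for Fap with the block), of 10 T and natural killer cell genes Trbc2 was higher, and of 7 Schwann and neural genes Ngfr, which basal cells also express, was higher. Kit was the 1 call among 7 mast cell and neutrophil genes, and the B and plasma cell, melanocyte, skeletal muscle and erythroid lists gave none with edgeR (2 in all at an unadjusted p under 0.05, 0 with DESeq2, 1 with limma-voom). The part of these cells in the results was not tested.

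Last, the gate difference in WT was set against the mean gate difference of D542G and Y541S mice. In this test 3 of 18298 genes (0.0164%) passed, all with a lower N minus ML difference in WT. Pde4b, a phosphodiesterase that degrades cyclic AMP, had 624, 649 and 611 CPM in WT N, against 597, 606 and 604 CPM in WT ML. In D542G it had 3440, 2730 and 3900 CPM in N, against 284, 339 and 332 CPM in ML, and in Y541S 2730, 2700 and 1750 CPM in N, against 449, 651 and 765 CPM in ML. The gate difference in WT minus that in the mutants was −2.61 ± 0.28 (adjusted p = 0.00215), and Pde4b passed whichever of the 18 libraries was left out (adjusted p up to 0.0232) but not with the block (0.0915). It was level between the gates in WT (0.06 ± 0.22, adjusted p = 0.903), with WT N 3 beside the other N libraries.

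Rrad, a small GTPase that restrains calcium channels, had 29.9, 31.1 and 55.5 CPM in WT N, against 10.4, 26.2 and 25.1 CPM in WT ML. It had 432, 289 and 400 CPM in D542G N, against 16.4, 15 and 18.1 CPM in D542G ML, and 734, 399 and 274 CPM in Y541S N, against 22.6, 32.3 and 38.0 CPM in Y541S ML (difference −3.30 ± 0.49, adjusted p = 0.0486). Padi1, a peptidylarginine deiminase, was the remaining call and was named after its values were seen. It had no count in any WT N library, against 1.87, 1.97 and 1.51 CPM in WT ML, at least 70.8-fold lower when 3 counts over the N libraries are taken as the floor of 0.0252 CPM. In D542G it had 3.24, 4.87 and 3.73 CPM in N, against 4.81, 2.88 and 2.83 CPM in ML (gate difference of WT minus that of the mutants −8.41, adjusted p = 0.0486, a fitted value that depends on the small value added to 0). WT N 3 was at 0 as well, and Padi1 lies across another annotated gene. Rrad and Padi1 each passed in 4 of 18 fits with a library left out, and lost the call without WT N 1, N 2, ML 2 or ML 3 and, for Padi1, ML 1, and without most mutant libraries (adjusted p up to 0.145 and 0.129). With edgeR and all libraries no other gene passed, while DESeq2 called 272 genes and limma-voom 1051. Without WT N 3 the edgeR count was 117 of 19137 (0.611%), 12 (0.0627%) higher and 105 (0.549%) lower. Without Y541S N 3 it was 38, 12 higher and 26 lower.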

How the data were processed

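RNA-seq was measured in 18 libraries of 3 genotypes and 2 gates with 3 libraries each, biological replicates per the labels' design text. The authors deposited a raw count and an RPKM value per gene and library; the build was GRCm38, per the submitters' processing notes. The deposited RPKM values were not used for any result. No source used here names the aligner, the counting tool or its strand setting, so reads of a gene and an antisense neighbour cannot be told apart. Of 52636 gene identifiers per table, 52489 (99.7%) matched GENCODE M21. For 44954 of the matched genes (85.6%) the deposited gene width equals the whole gene span, introns included. No source used here says whether reads in introns were counted.

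Counts were tested with edgeR 4.0.16 in R 4.3.3 (quasi-likelihood test, 6 group means over all 18 libraries, TMM scaling, filterByExpr with a minimum count of 10 and total of 15, Benjamini-Hochberg adjustment, calls at an adjusted p under 0.05). The scripts were tested on simulated counts. Alternatives were DESeq2 1.42.0 with its own size factors, limma-voom 3.58.1 with quality weights, RLE scaling, no filter, the 6 WT libraries alone, leaving out each library, and the replicate number as a block. The labels do not say that numbers mark pairs. Deviations from the gate means correlated at 0.348, 0.177 and 0.418 between WT libraries of the same number, each over 0.1, so they were taken as pairs, from the data and not from the design. Libraries of different numbers correlated at −0.449 to 0.178, the highest as high as pair 2. Deviations within a gate sum to 0, so positive values for some pairs go with negative ones for others.

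The comparison and the 40 gene lists were chosen with earlier results of these data known. Genes named were the 12 highest and 12 lowest called genes with a mean log2 CPM of at least 3, 8 each way without WT N 3, up to 4 members per list by smallest p, 26 fixed genes, and genes called in the comparison with the mutants. Other genes were chosen after their values were seen.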

Additional observations from a re-analysis of the deposited data

Results flagged for a closer look

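For 3 genes the gate difference in WT differed from the mean gate difference of D542G and Y541S, by a test of that difference itself in edgeR over all 18 libraries. The gate difference in WT minus that in the mutants was −2.61 for Pde4b (adjusted p = 0.00215), −3.30 for Rrad (adjusted p = 0.0486) and −8.41 for Padi1 (adjusted p = 0.0486), on the log2 scale. Pde4b was level between the gates in WT, and higher in N than in ML in each mutant genotype. For Rrad the levels in N were 29.9, 31.1 and 55.5 CPM in WT, below the lowest mutant N library at 274 CPM. Padi1 had no count in the 3 WT N libraries, while the Y541S N libraries had 0.299, 1.31 and 0.226 CPM, against 3.02, 0.850 and 2.64 CPM in Y541S ML. With the replicate number as a block none of the 3 passed (adjusted p = 0.0915, 0.16 and 0.223 for Pde4b, Rrad and Padi1), and DESeq2 called all 3 (2.25e-17, 1.92e-07 and 4.41e-05). At an unadjusted p under 0.05 there were 1781 of 18298 genes, 1930 with the block.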

How the results depend on the processing

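The count of genes called between WT N and WT ML was 646 (392 higher, 254 lower in N) and moved with the tool, the libraries in the fit and WT N 3. Scaling by RLE gave 660 and no filter on low counts gave 507, both within 1.5 times. DESeq2 called 2028 (1191 higher, 837 lower), limma-voom 5167 (2619 and 2548), the 6 WT libraries alone 16 (1 and 15), and these with the replicate block 172 (104 and 68). With the replicate block over all libraries the count was 900 (508 and 392), and the block without WT N 3 gave 2451 (1247 and 1204). Leaving out 1 library at a time gave 157 to 2965, with 85 to 1408 higher and 72 to 1557 lower. Without D542G N 1 or D542G N 2 there were 256 and 257 higher. In the comparison of WT with the mutants, 3 genes passed (0 higher, 3 lower), with RLE 3, without the filter 1 (1 lower), with DESeq2 272 (69 and 203), with limma-voom 1051 (448 and 603), and with the replicate block 0. Leaving out 1 library gave 1 to 117 there, with 0 to 12 higher and 1 to 105 lower. Of 200 named results 15 changed sign in some alternative, all with no call in either fit, such as Areg and Ly6a without WT N 3 (−0.25 and −0.91). Of 200 named results the block ended 6 calls and added 31, DESeq2 ended 0 and added 39, limma-voom ended 0 and added 72, the missing filter ended 7, and the 6 WT libraries alone ended 63 (187 of the 200 had a value there). The cause of these changes was not tested, except that the 6-library fit has fewer residual degrees of freedom by its construction. In limma-voom WT N 3 had a quality weight of 0.18, the lowest of the 18 libraries. Counts of 0 in a library limit folds to lower bounds.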
